A study of Homo sapiens with 4 samples.

Results

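The epidermal growth factor (EGF) family of growth factors was followed as 9 genes, AREG, EREG, HBEGF, TGFA, BTC, EPGN, EGF, NRG1 and NRG2, in a human gastric carcinoma cell line in which the receptor tyrosine kinase MET was blocked or depleted. Their probes were found through the RefSeq accession that the array design gives each probe, which returned 12 probes of the 34127 on the array and 9 of 19740 named genes. AREG, TGFA and NRG1 had 2 probes each and the other members 1 each. The members were chosen by name as a gene family, with earlier results of these data known.

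The cells were Hs746T, an established line that carries a MET exon-skipping mutation together with MET amplification, so every condition started from cells with a mutated and amplified MET gene. Total RNA was hybridised to 4 single-colour arrays, 1 each for cells given the solvent DMSO, cells given the MET kinase inhibitor PHA665752, cells transfected with a control siRNA (sc siRNA), and cells transfected with a MET siRNA. The siRNA cells were collected 48 h after transfection, and the dose and duration of PHA665752 for the arrays are not given in the sources used here. The design asked which transcripts differed when MET was inhibited (PHA665752 over DMSO) and when its mRNA was depleted (MET siRNA over sc siRNA).

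EGF family growth factors are made as membrane-anchored precursors whose extracellular part is released by surface proteases such as ADAM17 and ADAM10. The released factors bind ERBB receptors: AREG, EGF, TGFA and EPGN bind EGFR, and HBEGF, BTC and EREG bind EGFR and ERBB4. The neuregulins NRG1 and NRG2 bind ERBB3 and ERBB4. Several of them, AREG and HBEGF among the best known, are also transcribed in response to the ERK kinase cascade that receptor tyrosine kinases switch on.

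Each condition had 1 array, so no difference below has a replicate, a standard deviation between cultures or a p-value, and "rose" and "fell" mean only a difference of at least 2-fold between the 2 arrays of a pair. A signal is the scanner software's background-subtracted, processed fluorescence in arbitrary units. A log2 ratio is the difference of log2 signals after each array was scaled to its own 75th percentile. The error given with a ratio (±) is the software's own estimate for the spots, which was 0.204 to 0.223 on the log2 scale over the 30 member ratios and leaves out any difference between cultures. The remaining pair, sc siRNA over DMSO, compares both control arrays and shows how far 2 arrays without MET suppression lay apart, though it shares an array with each of the other pairs and also holds the effect of transfection. The 4 arrays had 61.1% to 68.2% of their probes well above background, lowest with MET siRNA, and 0 saturated spots. The MET probe (A_23_P359245) read 221451 in DMSO, 100492 with PHA665752, 190010.0 in sc siRNA and 77854 with MET siRNA. Its log2 ratio was -1.33 for the knockdown pair, -0.93 for the inhibitor pair and 0.032 between the controls. MET mRNA was thus lower on the MET siRNA array, as its label says. It also read lower with PHA665752, past 2-fold in 4 of 9 alternative settings. Of 5 epithelial markers 4 were well above background on every array, and CDH1 was not on the MET siRNA array. Of 5 gastric mucosa markers 3 (MUC6, TFF1 and TFF2) were well above background on every array, GKN1 was on none, and MUC5AC had no probe with a value on each array. Among the leukocyte markers reported, CD3E was below that limit on every array. PTPRC, at 22.7 to 37.8, and CD14, at 113 to 140.1, were well above background on every array. So were 3 of 4 mesenchymal markers (FN1, CDH2 and ZEB1), while VIM had no probe with a value on each array. The 2 endothelial markers, PECAM1 (1846 in DMSO) and CDH5 (88.5 in DMSO), were also well above background on every array.

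With the inhibitor, 3 of the 9 genes fell, namely AREG, HBEGF and NRG2, and none rose. In the same pair 6.14% of all genes fell and 10.0% rose by their brightest probe. The 3 genes accounted for 4 of the 12 probes, where 5.11% of all probes fell past 2-fold and 8.82% rose. With MET siRNA, 1 of the 9 genes fell, where 0.507% of all genes fell and 1.48% rose. It was AREG, with 2 of the 12 probes, where 0.510% of all probes fell and 1.33% rose. Both AREG probes were therefore among the 33 probes, 0.0967% of the array, that fell past 2-fold in both pairs, while 0.501% of the array and 0 of the 12 member probes rose in both. These pairs have no array in common. Over the 8 genes that gave a ratio, the median log2 ratio was -0.73 with the inhibitor and -0.21 with the siRNA, beside 0.075 and -0.017 over all genes with a ratio. A lower signal from a culture cannot tell fewer cells making a transcript from less of it in each cell.

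**Figure D1:**
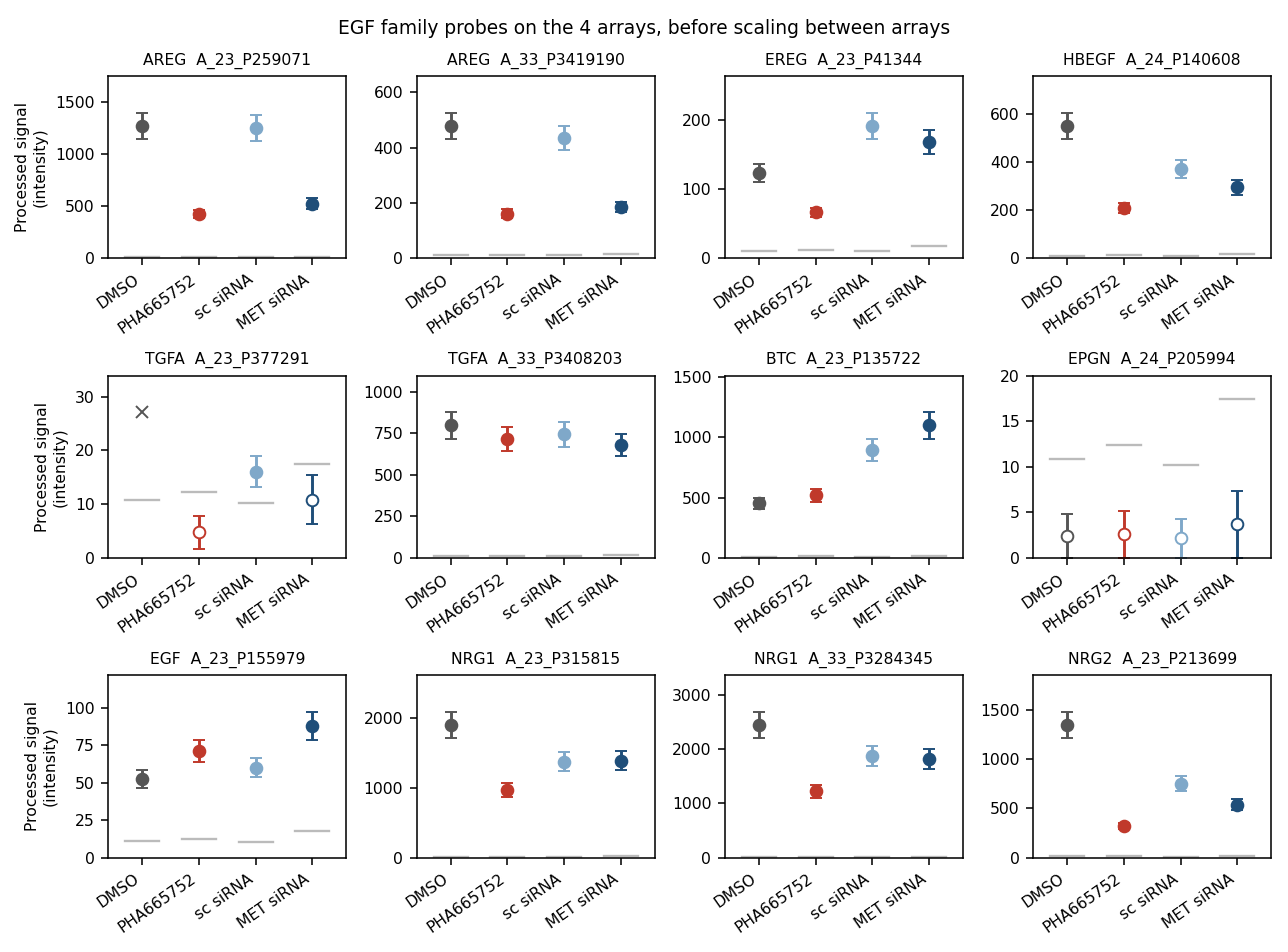
Processed signal (arbitrary units, linear axis from 0 in each panel) of the 12 probes on the DMSO, PHA665752, sc siRNA and MET siRNA arrays; each point is 1 array, error bars are the scanner software's own error, open points mark signals not well above background, the cross is a spot left out as an outlier, and grey lines are the lowest signal well above background on each array. Both AREG probes were low on the PHA665752 and MET siRNA arrays, NRG2 was highest in DMSO, BTC was high on both siRNA arrays, and EPGN was not well above background on any array.

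AREG encodes amphiregulin, an EGFR ligand that binds heparan sulfate. Its first probe (A_23_P259071, NM_001657) read 1276 in DMSO, 427 with PHA665752, 1250.0 in sc siRNA and 527 with MET siRNA. The other AREG probe (A_33_P3419190) read 479 in DMSO, 160.4 with PHA665752, 434 in sc siRNA and 186 with MET siRNA. On both probes the control arrays lay close together and both MET-suppressed arrays lay well under them. The fall with the inhibitor was 2.58-fold on each probe (log2 ratios -1.37 ± 0.20 and -1.36 ± 0.20). The fall with MET siRNA was 2.45-fold on the first probe (-1.29 ± 0.20) and 2.41-fold on the other (-1.27 ± 0.20). Between the controls the ratios were 0.22 and 0.11, the other way.

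How rare such a fall was differed between the pairs. In the inhibitor pair 3.85% of the 21856 probes with a ratio were lower than the first AREG probe, and in the knockdown pair only 0.0880% of 20461. Of the 8 family genes with a ratio, AREG alone fell past 2-fold with MET siRNA. The inhibitor ratio minus the knockdown ratio was -0.073 ± 0.29 for the first probe and -0.098 ± 0.29 for the other, within the software's error of that difference, although this error leaves out differences between cultures and does not show that the treatments act alike. The AREG probes differed from each other by a root mean square of 0.0515 log2 units over the 4 arrays, after each was centred on its own mean.

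AREG lies on chromosome 4 in a row of related genes, in the order EPGN, EREG, AREG and, past 2 noncoding genes, BTC. Across this row the ratios were unlike in size: AREG fell in both pairs, and EREG was below 0 but within 2-fold in both. BTC had ratios above 0 and within 2-fold in both, and EPGN gave no ratio. The nearest protein-coding gene before the row, MTHFD2L, which encodes a mitochondrial folate enzyme, had log2 ratios of -0.0099 with the inhibitor and -0.68 with the siRNA. The 250 bases upstream of the start of AREG, EREG and BTC are printed here, with HBEGF, which fell with the inhibitor and lies on chromosome 5. Whether these sequences bear on the ratios was not tested. They are RefSeq sequences of build GRCh38.p14, 5′ to 3′ on the gene's own strand, and capitals mark every match to the motifs searched on both strands (TGACGTCA, the cAMP response element; TGANTCA, the AP-1 site; CCGGAA, an ETS core; GGGCGG, the GC box; the CArG box of serum response factor; and TATAAA).
AREG promoter, chr4:74444886-74445135, plus strand: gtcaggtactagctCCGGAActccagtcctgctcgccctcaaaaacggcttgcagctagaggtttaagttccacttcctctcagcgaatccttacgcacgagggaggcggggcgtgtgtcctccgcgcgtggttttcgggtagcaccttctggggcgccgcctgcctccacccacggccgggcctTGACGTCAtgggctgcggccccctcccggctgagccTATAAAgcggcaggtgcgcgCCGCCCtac
EREG promoter, chr4:74364895-74365144, plus strand: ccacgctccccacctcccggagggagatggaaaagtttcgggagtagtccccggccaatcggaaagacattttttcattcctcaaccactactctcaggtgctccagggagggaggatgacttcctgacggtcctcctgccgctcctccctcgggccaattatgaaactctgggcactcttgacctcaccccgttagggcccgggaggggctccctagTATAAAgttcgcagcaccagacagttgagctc
BTC promoter, chr4:74794524-74794773, minus strand: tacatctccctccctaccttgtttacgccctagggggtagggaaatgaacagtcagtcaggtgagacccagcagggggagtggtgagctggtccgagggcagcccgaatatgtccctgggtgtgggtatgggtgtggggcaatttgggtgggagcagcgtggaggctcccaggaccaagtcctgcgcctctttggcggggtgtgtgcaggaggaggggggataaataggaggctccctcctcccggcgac
HBEGF promoter, chr5:140346604-140346853, minus strand: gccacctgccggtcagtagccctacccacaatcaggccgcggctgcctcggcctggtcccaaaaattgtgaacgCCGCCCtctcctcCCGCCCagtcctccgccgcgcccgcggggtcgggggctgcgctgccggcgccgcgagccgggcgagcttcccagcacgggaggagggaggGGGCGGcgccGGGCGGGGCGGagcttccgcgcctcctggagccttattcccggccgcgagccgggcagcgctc

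The AREG window holds a complete TGACGTCA at 65 to 58 bases before the start, a sequence found in 1.65% of the 35114 promoter windows of this length in the table. It also holds TATAAA at 29 to 24 bases (10.72% of windows), CCGGAA at 236 to 231 bases (14.5%) and 1 GGGCGG on the opposite strand at 9 to 4 bases (42.6%). The EREG window matches only TATAAA, at 32 to 27 bases. The HBEGF window has 5 copies of GGGCGG, of which 1 pair overlaps by 1 base, and the BTC window has none of the letters searched. TGANTCA is in 6.57% of windows and in none of these 4, and the CArG box in 1.16% and in none of them. Among the other members the EGF window has TGAGTCA at 17 to 11 bases and the EPGN window TATAAA at 29 to 24 bases. NRG2 and TGFA have windows at 2 starts each. Both NRG2 windows hold 1 GGGCGG, 1 TGFA window holds 3, and the other TGFA window holds 1 CCGGAA. A match describes letters in a window and is not evidence of a bound factor, and no match says nothing about the factor.

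EREG encodes epiregulin, a low-affinity ligand of EGFR and ERBB4. Its probe (A_23_P41344, NM_001432) read 123 in DMSO, 66.4 with PHA665752, 192 in sc siRNA and 168 with MET siRNA. Both siRNA arrays were above both arrays of the inhibitor experiment. The log2 ratio was -0.68 ± 0.21 for the inhibitor pair and -0.23 ± 0.21 for the knockdown pair, neither past 2-fold, and 0.89 ± 0.21 between the controls. Over 9 alternative settings the inhibitor ratio lay between -0.94 and -0.37. Under 50th percentile scaling the inhibitor and control values were -0.93 and 0.79. In that control pair 97.3% of probes with a ratio were lower than EREG.

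BTC encodes betacellulin, which binds EGFR and ERBB4. Its probe (A_23_P135722, NM_001729) read 453 in DMSO, 517 with PHA665752, 896 in sc siRNA and 1098 with MET siRNA. BTC was high where cells had been transfected and low where they had not, whether or not MET was suppressed. It was the 1 member probe of 12 that rose between the controls, 2.36-fold (1.24 ± 0.20), in a pair where 2.12% of all probes rose and 0.785% fell. The ratios for MET suppression were 0.41 ± 0.20 with the inhibitor and 0.25 ± 0.20 with the siRNA, and the latter was -0.054 when arrays were scaled to the median of their probes well above background. The siRNA and inhibitor experiments differ in transfection and may differ in time in culture, which cannot be told apart here.

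EPGN, encoding epigen, an EGFR ligand of low affinity, had signals of 2.16 to 3.70 that were not well above background on any array, and no ratio was taken. The lowest signal well above background was 10.2 to 17.4 over the arrays. EGF, the founding member, is made from a long precursor and was dim, at 52.3 in DMSO, 71.0 with PHA665752, 59.8 in sc siRNA and 87.6 with MET siRNA (A_23_P155979, NM_001963). Each MET-suppressed array read higher than its control, with ratios of 0.65 ± 0.22 and 0.50 ± 0.22, both short of 2-fold, and the control pair differed by 0.45 ± 0.22.

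HBEGF encodes heparin-binding EGF-like growth factor, whose precursor is also the receptor for diphtheria toxin. Its probe (A_24_P140608, NM_001945) read 552 in DMSO, 209 with PHA665752, 373 in sc siRNA and 295 with MET siRNA. The PHA665752 array was the lowest and DMSO the highest, with both siRNA arrays between. HBEGF fell 2.27-fold with the inhibitor (-1.19 ± 0.21), and under normexp, another background correction, the ratio was -0.96 and short of 2-fold. With MET siRNA the ratio was -0.38 ± 0.21, near the -0.31 ± 0.20 between the controls. When arrays were scaled to the median of their probes well above background, these were -0.69 and -0.32, less alike. The inhibitor ratio was lower than the knockdown ratio by 0.80 on the log2 scale (-0.80 ± 0.29).

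TGFA encodes transforming growth factor alpha, the EGFR ligand long studied in gastric mucosa. Its brighter probe (A_33_P3408203, NM_003236) read 798 in DMSO, 718 with PHA665752, 745 in sc siRNA and 679 with MET siRNA. Its scaled log2 signals spanned 0.18 over the 4 arrays, the narrowest range of the member probes with a ratio, and the ratios were 0.062 ± 0.20 with the inhibitor, -0.18 ± 0.20 with the siRNA and 0.15 ± 0.20 between the controls. The inhibitor value turned sign in 3 of 9 alternative settings, down to -0.18. The dimmer TGFA probe (A_23_P377291) was well above background in sc siRNA, at 16.02, and not with PHA665752, at 4.74, or MET siRNA, at 10.8. Its only DMSO spot, at 27.1, was marked as an outlier by the scanner software and left out, so neither pair with DMSO gave a ratio. The knockdown pair gave none because the probe was too dim. With the outlier marks not used, the inhibitor pair gave a bound of -0.93 and the control pair a ratio of -0.50. The knockdown pair again gave none.

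NRG1 and NRG2, the neuregulins among the members, bind ERBB3 and ERBB4 and not EGFR. NRG2 (A_23_P213699, NM_013982) read 1349 in DMSO, 324 with PHA665752, 751 in sc siRNA and 539 with MET siRNA. It fell 3.59-fold with the inhibitor (-1.84 ± 0.20), and 1.66% of probes with a ratio were lower. With MET siRNA it was 1.44-fold lower (-0.52 ± 0.20), and the sc siRNA array itself was 1.51-fold below DMSO (-0.59 ± 0.20), so the knockdown and control differences were of similar size. Scaled to the median of probes well above background, they were -0.83 and -0.60. Its inhibitor and knockdown ratios differed by -1.32 ± 0.29, more than for any other member probe.

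NRG1 read 1894 in DMSO, 965 with PHA665752, 1370.0 in sc siRNA and 1384 with MET siRNA on its first probe (A_23_P315815, NM_004495). The other NRG1 probe (A_33_P3284345) read 2453 in DMSO, 1224 with PHA665752, 1876 in sc siRNA and 1819 with MET siRNA. Both probes were lowest with PHA665752 and level across the siRNA arrays. The inhibitor ratios were -0.76 ± 0.20 and -0.79 ± 0.20 (1.69-fold and 1.73-fold lower), short of 2-fold, and passed it at -1.004 and -1.035 when arrays were scaled to their 50th percentile. The siRNA ratios were -0.032 and -0.091. When arrays were scaled to the median of their probes well above background, these were -0.33 and -0.39, so the level reading depended on the scaling. These probes followed each other most closely of the member probes, with a root mean square difference of 0.0404 log2 units over 4 arrays.

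**Figure D2:**
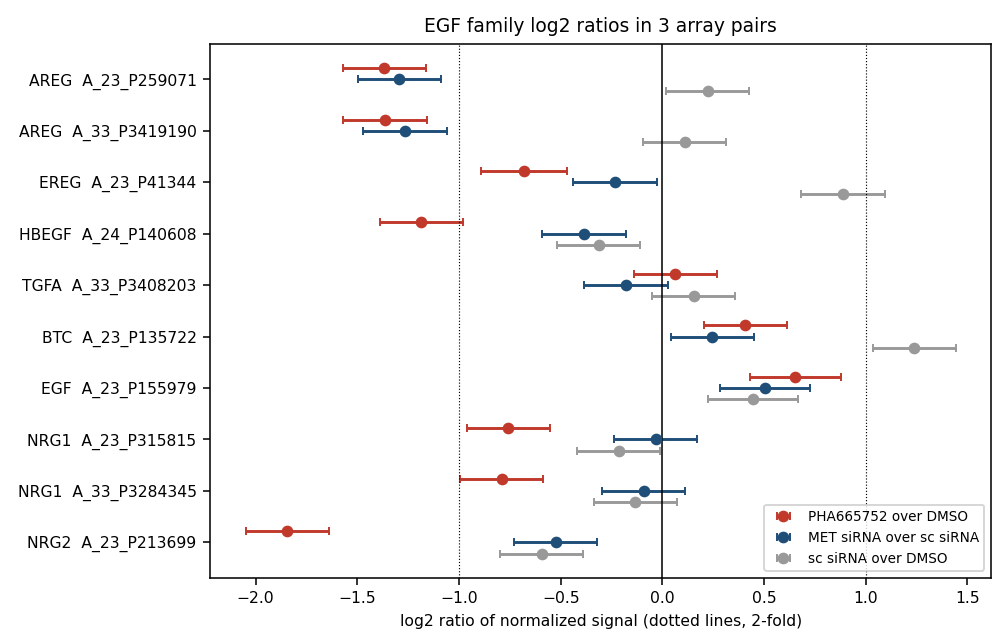
Log2 ratios of the member probes in the inhibitor pair, the knockdown pair and the control pair; error bars are the scanner software's own error and dotted lines mark 2-fold. AREG lies past 2-fold in both the inhibitor and knockdown pairs, HBEGF and NRG2 in the inhibitor pair, and BTC in the control pair.

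Set side by side, the 10 probes with ratios fell into visibly different patterns. AREG was low in both kinds of MET suppression. HBEGF, NRG1, NRG2 and EREG were lower with the inhibitor than with the siRNA by more than the software's error of the difference. HBEGF differed by -0.80, the NRG1 probes by -0.73 and -0.70, NRG2 by -1.32 and EREG by -0.45 ± 0.30. For TGFA, BTC and EGF the differences lay within that error, at 0.24 ± 0.29, 0.16 ± 0.29 and 0.15 ± 0.31. This split depended on the background correction and the scaling. Under normexp EREG was at -0.37 with the inhibitor and -0.19 with the siRNA, within the error. With arrays scaled to the median of their probes well above background, EREG also came within the error. Its ratios were then -0.78 with the inhibitor and -0.53 with the siRNA. In that setting TGFA had -0.032 and -0.48, BTC 0.31 and -0.054, and EGF 0.56 and 0.20, each further apart than the error. Across the 4 arrays HBEGF was nearest in pattern to NRG1 among different member genes, at a root mean square difference of 0.186, and then to NRG2, at 0.239.

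**Figure D3:**
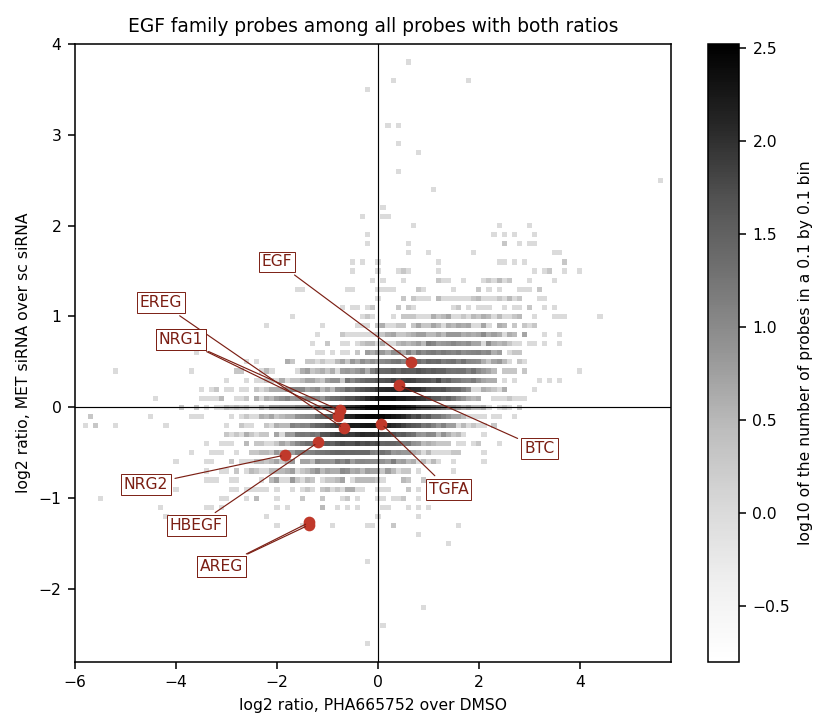
Log2 ratio with the inhibitor (horizontal) against log2 ratio with MET siRNA (vertical), with all probes that gave both as a shaded density and the member probes as labelled points; a value of -1 on an axis is a 2-fold fall. Both AREG probes lie in the lower left, below -1 on both axes, while NRG2, HBEGF and NRG1 spread along the horizontal axis.

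Among 13074 named genes well above background on every array, those nearest in pattern to AREG were FZD8, a Wnt receptor, COL13A1, a transmembrane collagen, and USP53, at root mean square differences of 0.126, 0.130 and 0.152 log2 units over the 4 arrays. Nearest to HBEGF were MAST4, PIAS2 and GLDC, the glycine decarboxylase, at 0.0164, 0.0316 and 0.0333. Nearest to NRG2 were ITGB1BP2, PLAU, the urokinase plasminogen activator, and KCTD12, at 0.0423, 0.0679 and 0.0761. Nearest to BTC were LGALS9, which encodes galectin-9, IL22RA1, an interleukin-22 receptor subunit, and PHF11, at 0.0435, 0.0583 and 0.0592. AREG thus had more distant nearest genes than the other 3. With 4 arrays many genes come close to any pattern, so these values describe the arrays only.

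The receptors of the family were all well above background on the brightest probe. EGFR (A_23_P215790) read 1147 in DMSO, 790 with PHA665752, 994 in sc siRNA and 879 with MET siRNA, with ratios of -0.32 and -0.23. Another EGFR probe, A_33_P3351944, had 0.41 and 0.050, and the dimmest, A_33_P3351955, had -0.36 and -0.43. A_33_P3351944 thus disagreed in direction with the other EGFR probes. ERBB2, the receptor with no known ligand, read 1691, 2509, 1299 and 1509 on the DMSO, PHA665752, sc siRNA and MET siRNA arrays, with ratios of 0.78 and 0.17. ERBB3 (A_33_P3211569) read 107.5, 149, 90.8 and 95.2 in the same order, with ratios of 0.69 and 0.021. ERBB4 (A_32_P183765) read 46.0, 82.1, 49.6 and 53.3, with ratios of 1.05 and 0.057. On a dimmer ERBB3 probe (A_23_P349416) the signal rose from 15.4 to 44.7 with the inhibitor (1.75), so the ERBB3 probes disagreed in size. By the brightest probe, ERBB4 was the 1 receptor of 4 that rose with the inhibitor, where 10.0% of all genes rose and 6.14% fell. ERBB4 passed 2-fold in 4 of 9 alternatives, and was at 0.80 under 50th percentile scaling and 0.64 under normexp. The other ERBB4 probe (A_33_P3211558) was not well above background on any array. With MET siRNA 0 of the 4 passed 2-fold, where 1.48% of all genes rose and 0.507% fell. The receptors' median ratio was 0.73 with the inhibitor, opposite in sign to the ligands' -0.73, and stayed between 0.49 and 0.73 in 9 alternatives. The remaining neuregulins, NRG3 and NRG4, were not well above background on any array.

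Genes that act on the ligands after transcription were followed as a list of 14 shedding and trafficking genes, of which 12 gave a ratio. BACE1, the aspartic protease that cleaves neuregulin precursors, rose with the inhibitor (1.37), and the metalloprotease ADAM19 fell (-1.16). In that pair 10.0% of all genes rose and 6.14% fell. ADAM17, the main sheddase of AREG, had 0.80 with the inhibitor and 0.30 with the siRNA, and ADAM10 had 0.070 and -0.029. Scaled to the median of probes well above background, the siRNA value of ADAM17 was -0.0040. The list's median was 0.27 with the inhibitor and 0.0053 with the siRNA, the latter negative in 3 of 9 alternatives. With the siRNA 0 of the list's genes passed 2-fold, where 1.48% of all genes rose and 0.507% fell. Among 5 surface partners, CD44, a proteoglycan core that holds heparin-binding ligands, rose with the inhibitor (1.02, or 0.77 under 50th percentile scaling) and had -0.22 with the siRNA.

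Among 9 feedback regulators of the receptors, ERRFI1, which binds and inhibits EGFR, read 21437 in DMSO, 3718 with PHA665752, 12874 in sc siRNA and 8368 with MET siRNA. It fell with the inhibitor (-2.31) and had -0.67 with the siRNA. CBLB, a ubiquitin ligase for receptors, rose with the inhibitor (2.05) and had 0.46 with the siRNA, beside 0.97 between the controls. Among 17 adaptors and kinases of the ERK cascade, GAB2 rose with the inhibitor (1.16, or 0.91 under 50th percentile scaling) and MAP2K1 fell (-1.29), with a list median of 0.021 that turned negative in 3 of 9 alternatives.

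Of 16 transcripts known to respond to ERK signalling, 11 fell and 2 rose with the inhibitor, where 6.14% of all genes fell and 10.0% rose. The list median was -1.79. Among those with a ratio, SPRY4, a feedback inhibitor, was at -4.24, ETV5, an ETS factor, at -3.37 and FOSL1, an AP-1 subunit, at -3.36. Under normexp these were -2.47, -2.49 and -3.27, so their order depends on the background correction. ETV4 was not well above background with PHA665752, and its -3.07 is a bound on the fall. The immediate early genes EGR1 and FOS rose (2.945 and 1.96). With MET siRNA 2 fell, SPRY4 (-1.16) and the ERK phosphatase DUSP6 (-1.14), and none rose, with a median of -0.63, where 0.507% of all genes fell and 1.48% rose. SPRY4 was at -0.93 with the siRNA under normexp. Between the controls 2 of the 16 fell, FOS (-1.33) and PHLDA1 (-1.01), where 0.880% of all genes fell and 2.20% rose. On its first probe AREG's -1.29 with MET siRNA was below the ratio of each of these 16 genes on its brightest probe. The gap to SPRY4 and DUSP6 was smaller than the software's error of AREG's ratio. Under normexp the AREG probes were at -1.19 and -1.07 with the siRNA and DUSP6 at -1.19, so this order depends on the setting. With the inhibitor AREG's -1.37 was above the list's median of -1.79.

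**Figure D4:**
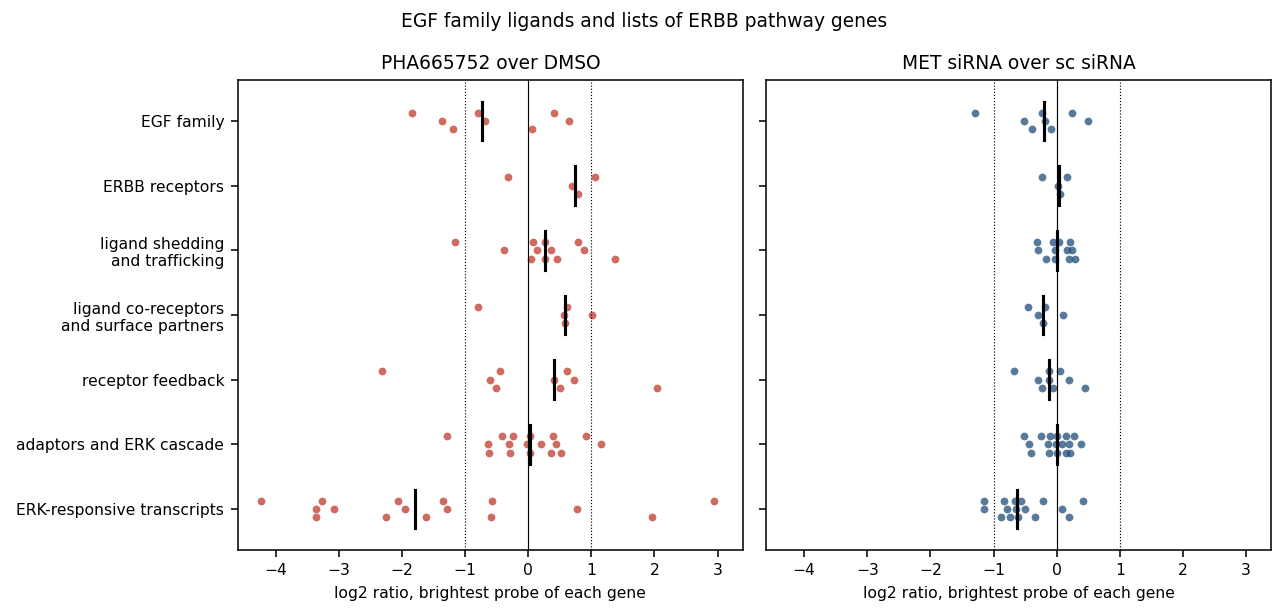
Log2 ratios of the genes of the EGF family and the 6 pathway lists (1 point per gene, brightest probe) with the inhibitor and with MET siRNA; bars mark each list's median and dotted lines 2-fold. The ERK-responsive list has its median at -1.79 with the inhibitor and -0.63 with the siRNA, the ERBB receptors at 0.73 and 0.039, and the EGF family at -0.73 and -0.21.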

How the data were processed

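Hs746T total RNA was labelled with Cy3 and hybridised to Agilent human 44K (V2) arrays, 1 for each of the 4 conditions. The authors deposited the scanner output, in which the signal is a fluorescence intensity in arbitrary units with the local background subtracted, and a value table of processed intensity. The file headers name Feature Extraction 11.5.1.1, and the study's methods name another version. Precision is limited by having 1 array per condition.

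Controls were left out, which kept 34127 probes, 33128 spotted once and 999 spotted 10 times. Any spot with an outlier mark from the software was then left out, 1.69% to 5.58% of spots per array. A probe with no usable spot on an array had no value there but still counted among the 34127. Replicate spots were averaged as log2 values and each array was scaled to its 75th percentile. A probe was taken as well above background where at least 50 percent of its usable spots were marked so. A ratio was taken where both arrays of a pair passed, and where 1 passed, a bound was set from the lowest signal well above background. Probes were named by matching their accession to RefSeq. There was 1 array per condition, so no test was made, and a fold of 2 described each pair. No value is set against the level of another probe. One marker gene is not reported here.

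All 9 members were named with every probe. The ERBB receptors were all named, and from the other lists the genes past 2-fold with the inhibitor, up to 3 rises and 3 falls, by the brightest probe. A few more genes were named after their values were seen: MTHFD2L for its position, ADAM17 and ADAM10 as the main sheddases, DUSP6 and PHLDA1 to resolve small counts, and ETV4 for its bound. The 3 genes nearest in pattern were given for each member past 2-fold in a pair. Members and lists were chosen with earlier results of these data known. The 9 alternatives changed the scaling (50th percentile, quantile, median of probes well above background, or a floor of 5 and then the median), the background correction (normexp, offset 50), the filter on dim probes (none, or both arrays well above background), the outlier marks, and the source (value table). Promoter windows are RefSeq sequences of GRCh38.p14, and 8 of 9 genes are described. Scripts were tested on simulated data and used Python 3.11.15, numpy 2.4.6, pandas 2.3.3, matplotlib 3.10.9, R 4.3.3 and limma 3.58.1.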

Additional observations from a re-analysis of the deposited data

How the results depend on the processing

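No paired analysis was possible because each condition had 1 array. For the same reason no array could be left out. The counts of member probes past 2-fold stayed within 1.5 times the reported counts in all 9 alternatives. With the inhibitor the count was 4, and it was 6 with 50th percentile scaling or the floor, where both NRG1 probes passed, and 3 with normexp, where HBEGF did not. AREG fell past 2-fold in both pairs in 9 of 9 alternatives, at -1.61 to -1.03 with the inhibitor and -1.59 to -1.07 with MET siRNA over its 2 probes. NRG2 fell with the inhibitor in 9 of 9 (-2.09 to -1.68), and BTC rose between the controls in 9 of 9 (1.01 to 1.248). Of the member probe ratios under the alternatives, 230 stayed within the software's error of the reported ratio and 40 moved further. Scaling shifted whole pairs: the median of all genes with the inhibitor was 0.075, or -0.17 with the 50th percentile, and with MET siRNA -0.017, or -0.31 with the median of probes well above background. The share of probes past 2-fold that rose went from 63.3% to 43.2% and from 72.3% to 41.3% under these. Dim probes set the other limit, since EPGN gave no ratio and the dimmer TGFA probe gave none in the knockdown pair. In the pairs with DMSO that TGFA probe gave no ratio because its DMSO spot was marked as an outlier.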
